A study of Homo sapiens with 34 samples.

Results

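The 12 libraries described here, of 34 in the series, ask which expression differences set on day 1 of differentiation were still present after a shared day 2. They are the 6 libraries collected at 48 h whose cells had spent day 1 in the posterior primitive streak medium (PPS) and the 6 whose cells had spent it in the first medium of the definitive endoderm protocol, DE(a). The members were chosen by their labels, and each set of 6 holds 2 replicates in each of the day 2 media DE(b) (definitive endoderm), PM (paraxial mesoderm) and LM (lateral mesoderm). On day 1, PPS cells had received BMP4 at 40 ng/ml, bFGF at 20 ng/ml and 6 µM CHIR (an activator of canonical WNT signalling) with no activin, and DE(a) cells 100 ng/ml activin and 2 µM CHIR with neither bFGF nor BMP4. On day 2, DE(b) held 100 ng/ml activin and the BMP receptor inhibitor LDN at 250 nM. PM held the activin and nodal receptor inhibitor A8301 at 1 µM, 20 ng/ml bFGF and 250 nM LDN, and LM held 1 µM A8301, 30 ng/ml BMP4 and the WNT secretion inhibitor IWP2 at 4 µM (these are the labels' recipes, and a legend of the study also lists CHIR in PM). All cells were wild-type ESI017, 1 established human embryonic stem cell line grown as an adherent monolayer, so the comparison has no second genetic background. The differentiating cells were in E6 basal medium. The same contrast at 24 h, before the media were shared, comes from 2 PPS and 2 DE(a) libraries. A reference level comes from 2 libraries of undifferentiated hPSC, labelled as mTeSR Plus controls of 48 h. These hPSC differ from the other cells in basal medium too, and were not collected at the start. The replicates are described as biological and labelled by number, and the counts of each number were deposited separately. What else a number marks is not given, so the p-values measure the spread between these samples.

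In the embryo, the primitive streak is patterned along its length: its anterior end, exposed to nodal, gives endoderm and axial mesoderm, and its posterior end, exposed to BMP and WNT, gives lateral, extraembryonic and later trunk mesoderm. HOX genes lie in 4 clusters, are switched on in order along each cluster as cells leave the streak, and record position along the body axis. Their activation is promoted by CDX factors, which are themselves WNT and FGF responsive, while FOXA2, HHEX, OTX2 and GSC mark the anterior streak and its endoderm and SOX2 and NANOG belong to the pluripotency network that cells leave on differentiation.

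Each library held between 15522780 and 23439799 estimated counts. Those of PPS at 48 h ranged from 16494711 to 23138266 and those of DE(a) from 15705663 to 21275437. Levels are CPM, the counts scaled to a common library total, and are not corrected for gene length. The share of mitochondrial transcripts was 4.28% to 8.20% after PPS and 4.55% to 9.28% after DE(a). Markers fixed for each of the 3 fates had their highest summed level in the labelled medium, except for the endoderm markers after PPS. After PPS the 5 endoderm markers summed to 271 and 332 CPM in PM. In DE(b) the summed level of these 5 markers was 767.5 and 938.6 CPM after DE(a) and 157 and 306.6 CPM after PPS. That of 5 paraxial markers in PM was 461.3 and 412.3 CPM after DE(a) and 471.6 and 481.9 CPM after PPS, and that of 5 lateral markers in LM was 484.9 and 988 CPM after DE(a) and 2203 and 2038 CPM after PPS. Markers of other fates also moved with day 1. The summed level of 7 amnion markers was 132 and 165 CPM in the PPS libraries of 24 h and 10.8 and 9.25 CPM in those of DE(a), and in LM it was 342 and 473 CPM after PPS, where 4 of the 7 markers averaged at least 10 CPM, and 232 and 299 CPM after DE(a), where 3 did. GABRP and VTCN1, markers with a narrower expression, were under 1 CPM in the PPS libraries of 24 h. In the DE(a) libraries of 24 h GABRP was higher, at 3.27 and 4.88 CPM, as was VTCN1, at 0.518 and 0.215 CPM. In LM, GABRP was at 31.8 and 51.9 CPM after PPS and 1.72 and 5.40 CPM after DE(a), and VTCN1 at 5.77 and 9.74 CPM after PPS and 0.191 and 0.334 CPM after DE(a). Of the 7 markers, only GATA3 was not higher after PPS in LM, with 107 and 136 CPM after PPS and 129 and 140 CPM after DE(a). The amnion sum was 25.1 and 20.3 CPM after PPS and 4.44 and 4.07 CPM after DE(a) in DE(b), and 13.8 and 8.63 CPM after PPS and 3.48 and 2.69 CPM after DE(a) in PM. In these bulk libraries, fewer cells of a type and less RNA per cell cannot be told apart, and the part of such cells in the differences below was not tested.

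Calls are those of edgeR's quasi-likelihood test at a Benjamini-Hochberg adjusted p under 0.05, from a fit with 1 mean per condition to the 34 libraries and 17895 genes. At 24 h, 3749 genes (20.9% of those tested) differed between PPS and DE(a), 1917 higher and 1832 lower after PPS. After the shared day 2, 3107 genes (17.4%) differed in DE(b) medium, 1541 (8.61%) in PM and 2564 (14.3%) in LM. In each medium, most of the genes called at 24 h were not called again in the same direction. Of the 1917 genes higher at 24 h, 460 (24.0%) were higher in DE(b), where 8.63% of all genes were, 335 (17.5%) in PM against 3.67%, and 394 (20.6%) in LM against 6.52%. Of the 1832 lower genes, 344 (18.8%) were lower in DE(b) against 8.73% of all genes, 303 (16.5%) in PM against 4.95%, and 410 (22.4%) in LM against 7.81%. Calls in the opposite direction numbered 430 in DE(b) medium, 120 in PM and 260 in LM. Of the genes higher at 24 h, 9.91%, 4.64% and 8.66% were lower in these media, against 8.73%, 4.95% and 7.81% of all genes. Of the genes lower at 24 h, 13.1%, 1.69% and 5.13% were higher, against 8.63%, 3.67% and 6.52%. In DE(b) the opposite share of the genes lower at 24 h thus lay above that of all genes. For the genes higher at 24 h it lay near that of all genes. Called in no medium were 1792 of the 3749 genes. The 4 contrasts share no library. Fewer genes differed in PM than in the other media. PM held the highest share of 24 h calls with an unchanged sign, called or not, at 73.3% against 51.6% in DE(b) and 61.2% in LM. No matching share over all genes was computed for these signs or for the 1792 genes, so neither can be read as particular to the 24 h calls. Leaving out 1 library lowered these counts by over 1.5 times in some cases. At 24 h, 2190 genes were called without the first DE(a) library and 2317 without the second PPS library. In DE(b), 1563 were called without the first and 1926 without the second PPS library, and 1639 without the second DE(a) library. In PM, 567 were called without the first DE(a) library and 744 without the second PPS library, and in LM 1657 without the first DE(a) library and 1558 and 1626 without the first and the second PPS library.

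**Figure D1:**
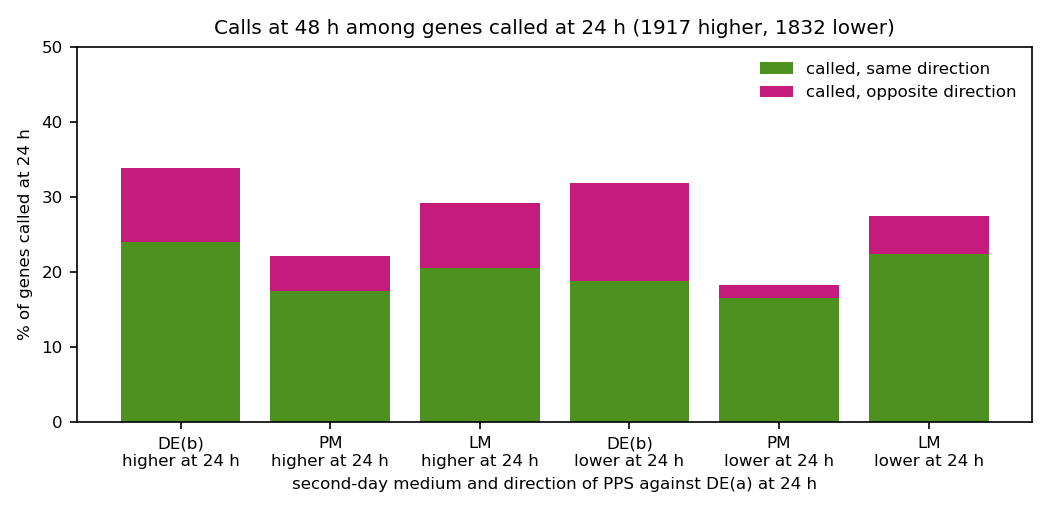
Share of the genes called at 24 h (y axis, in %) that were called again at 48 h, for the 1917 genes higher and the 1832 lower after PPS (x axis, with the day 2 medium). Green bars are calls in the same direction, from 16.5% to 24.0%, and pink bars stacked on them are calls in the opposite direction, from 1.69% to 13.1%.

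Of the genes tested, 127 (0.71%) were higher and 200 (1.12%) lower after PPS in all 3 media. Of these, 196 genes (1.1% of those tested) had the same call at 24 h, and they are referred to as kept: 86 (0.481%) were higher and 110 (0.615%) lower after PPS. Without the first DE(a) library of PM, the library that moved it most, the count was 109, of which 104 were among the 196. The count is a property of the rule, and each of its 4 tests has its own chance of missing a gene. Of the higher genes, 232 more were called in 2 of the 3 media and 467 in 1, and of the lower genes 190 and 347. The median log2 fold change of the kept higher genes was 2.75 at 24 h, 1.84 in PM and 2.48 in both LM and DE(b), with genes at 0 in both DE(a) libraries set to their lower bound, and that of the kept lower genes was -2.04 at 24 h, -1.86 in PM, -2.15 in LM and -1.87 in DE(b). Over all genes tested it was within 0.01 of 0 in each contrast. For 64 of the 86 kept higher genes (74.4%) the difference was smaller in PM than at 24 h, as it was for 59.3% of all genes, and PM gave the smallest of the 3 differences for 50 of them (58.1%), against 36.7% of all genes. Among the kept lower genes the difference was smallest in DE(b) for 42 (38.2%, against 28.3% of all genes), in PM for 38 and in LM for 30.

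With medium as a block, the 12 libraries gave 1897 called genes (11.2% of 16976), 834 higher (4.91%) and 1063 lower (6.26%) after PPS, and 653 of them had been called in the same direction at 24 h and 131 in the opposite one. Without the first PPS library of DE(b), 1252 genes were called. All 196 kept genes were among the 1897, as their 3 calls at 48 h use the same libraries. A stricter reading asks that all 6 PPS libraries lie beyond all 6 DE(a) libraries whatever the medium. For 35 of the 86 kept higher genes they lay above (0.872% of all genes did), and for 40 of the 110 kept lower genes below (1.94%). The kept genes were chosen on these same libraries, so a share above that of all genes follows from the choice and is no separate evidence. The undifferentiated cells were in none of the 4 contrasts, apart from their share in the estimate of the spread and in the filter. The median hPSC level was 2.70 CPM for kept higher genes, 19.4 CPM for kept lower genes and 14.5 CPM for all genes tested. Under 1 CPM in hPSC were 34 of 86 kept higher genes (39.5%) and 8 of 110 kept lower genes (7.27%), against 20.9% of all genes. Of the kept lower genes, 93 (84.5%) were higher in hPSC than in PPS cells of 24 h, against 49.9% of all genes, and 47 (42.7%) higher in hPSC than in DE(a) cells, against 54.5%. The PPS and DE(a) levels of 24 h were used in choosing these genes.

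**Figure D2:**
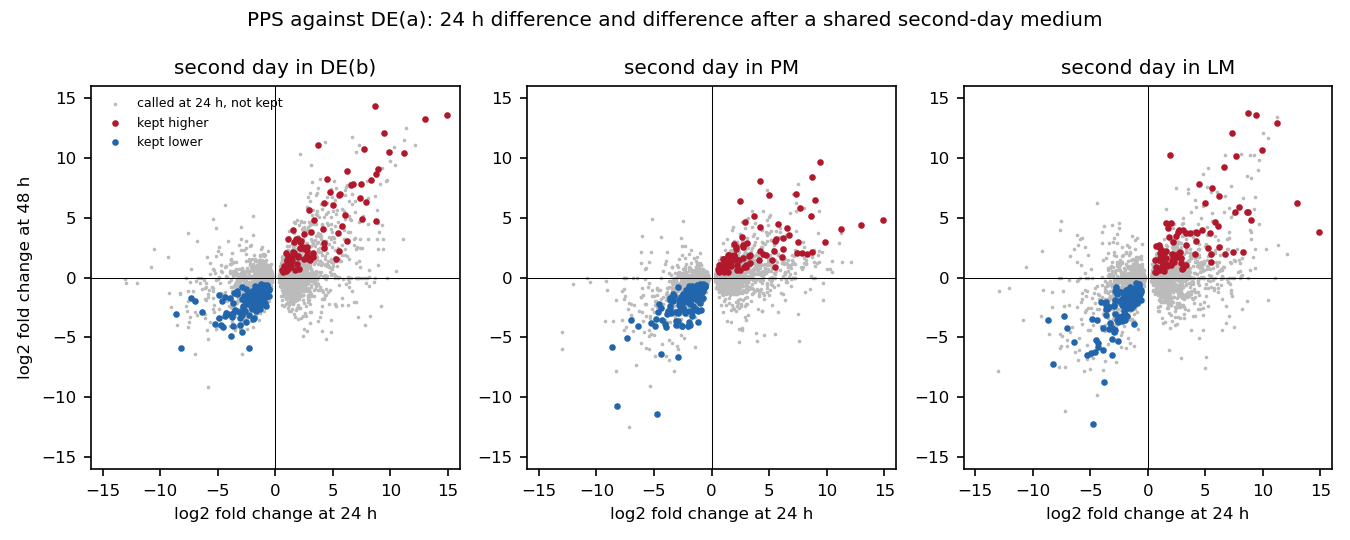
Fitted log2 fold change of PPS against DE(a) at 24 h (x axis) and in each day 2 medium at 48 h (y axis, 1 panel per medium), for the 3749 genes called at 24 h. Red points are the 86 kept higher genes, blue points the 110 kept lower genes and grey points the rest, and values beyond about 8 belong mostly to genes at or near 0 in 1 group, where the fitted fold is no bound.

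Of the 22 gene lists, that of the HOX clusters held the most kept genes. It was also the largest list, with 37 genes tested against 20 or fewer in each other list. In the neural list 3 of 9 genes tested were kept, all of them lower. Among all genes tested, 0.481% were kept higher. The share of all genes called higher after PPS was 10.7% at 24 h. At 48 h this share lay between 3.67% (PM) and 8.63% (DE(b)). Of 37 HOX genes tested, 34 were higher after PPS at 24 h, 30 in DE(b) medium, 15 in PM and 34 in LM, none was lower at any point, and 14 were kept (4 of the HOXA, 5 of the HOXB, 3 of the HOXC and 2 of the HOXD cluster). The median log2 difference, with genes at 0 set to their bound, was 5.82 at 24 h, 2.07 in PM, 5.44 in LM and 4.72 in DE(b). Summed over the 37 genes, the level after DE(a) was 4.00 and 4.13 CPM at 24 h, 1.03 and 0.640 CPM in DE(b), 387.1 and 858.6 CPM in PM and 56.1 and 133.2 CPM in LM. After PPS it was 1083 and 900.5 CPM at 24 h, 662.6 and 527.7 CPM in DE(b), 2242 and 2274 CPM in PM and 1510 and 1572 CPM in LM. DE(a) cells had HOX transcripts after PM, fewer after LM and almost none after DE(b), and their PM replicates lay further apart than those of PPS. In hPSC the sum was 1.45 and 0.532 CPM.

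HOXB9 (ENSG00000170689, chromosome 17 from 48621156 to 48626358 of GRCh38), a trunk HOX gene, was the most abundant of the 14. At 24 h it was at 159.8 and 133 CPM after PPS and 0.363 and 0.322 CPM after DE(a), in DE(b) at 149 and 117 CPM after PPS and 0 and 0 CPM after DE(a), in PM at 484 and 535 CPM after PPS and 3.08 and 26.7 CPM after DE(a) and in LM at 332 and 359.7 CPM after PPS and 3.57 and 12.2 CPM after DE(a). The lowest PPS library lay above the highest DE(a) library at 48 h, with the DE(a) level rising from none in DE(b) to its highest in the second replicate of PM. The log2 fold change was 5.12 ± 0.74 in PM (edgeR adjusted p = 0.000138) and 5.51 ± 0.76 in LM (adjusted p = 3.16e-05), and the difference depended on the medium (adjusted p = 0.03). HOXB8 and HOXB6, its neighbours on chromosome 17, behaved alike. HOXB8 ranged over 58.7, 108 and 137 CPM after PPS and 0, 0.812 and 9.59 CPM after DE(a) (lowest, median and highest of 6 libraries at 48 h), and HOXB6 over 30.8, 75.1 and 177 CPM and 0, 1.34 and 20.1 CPM. Neither range overlapped between the day 1 treatments.

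HOXA9 (ENSG00000078399, chromosome 7 from 27162438 to 27175180), which lies toward the posterior end of the HOXA cluster, had no count in any of the 6 DE(a) libraries of 48 h. After PPS it was at 33.9 and 21.6 CPM in DE(b), 7.6 and 3.24 CPM in PM and 81.9 and 75.3 CPM in LM, against 23.3 and 23.3 CPM at 24 h. Against the 3 counts that a 0 allows in each library, its mean level was at least 172-fold higher in DE(b), 35-fold in PM and 470.4-fold in LM (edgeR adjusted p = 1.57e-05, 0.000516 and 3.72e-06). Its neighbour HOXA7 ranged over 5.77, 27.5 and 160.1 CPM after PPS and 0, 0.047 and 2.54 CPM after DE(a), and was highest in PM, where HOXA9 was lowest. More posterior members of the cluster were not kept. HOXA10 was at 1.08 and 0.381 CPM after PPS and 0 and 0.112 CPM after DE(a) in PM (adjusted p = 0.0893) but at 81.4 and 59.4 CPM after PPS and 0 and 0 CPM after DE(a) in LM. For HOXA11 the PM levels were 0.173 and 0 CPM after PPS and 0.047 and 0.0561 CPM after DE(a) (adjusted p = 0.802) and the LM levels 28.5 and 25.2 CPM after PPS and 0 and 0 CPM after DE(a).

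In the HOXC and HOXD clusters, HOXC8 ranged over 2.25, 10.7 and 91.9 CPM after PPS and 0, 0 and 0.233 CPM after DE(a), with its highest values in LM. HOXC4 and HOXC6 overlap and share an upstream exon, so their reads can be split wrongly. HOXC6 was at 8.76, 13.8 and 72.8 CPM and 0, 0.0235 and 0.393 CPM, and its groups did not overlap either. HOXC4 overlapped, since the second DE(a) library of PM reached 13.6 CPM where the first had 0.235 CPM, and PPS libraries there had 109.6 and 113 CPM (log2 fold change 4.03 ± 1.00, adjusted p = 0.0195). HOXD4 was at 1.28, 3.67 and 44.7 CPM after PPS and 0, 0 and 2.52 CPM after DE(a). HOXC4, HOXC6 and HOXD4 had their highest DE(a) levels in PM. The others of the 14 were HOXA2, HOXA3, HOXB3, HOXB7 and HOXD3.

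CDX4 (ENSG00000131264, chromosome X from 73447053 to 73455171) was the CDX factor that stayed different in every medium. It was at 65.5 and 32.2 CPM after PPS and 2.13 and 0.806 CPM after DE(a) at 24 h. CDX4 was then at 5.19 and 2.67 CPM after PPS and 0.0985 and 0 CPM after DE(a) in DE(b), at 181 and 125 CPM after PPS and 1.03 and 1.57 CPM after DE(a) in PM and at 26.4 and 24.8 CPM after PPS and 0.637 and 0.146 CPM after DE(a) in LM. Each PPS library exceeded each DE(a) library, and the blocked log2 fold change was 6.60 ± 0.35 (edgeR adjusted p = 1.71e-05), with no call of medium dependence (adjusted p = 0.881). CDX1 and CDX2 were higher after PPS at 24 h, in DE(b) and in LM but not in PM, where their log2 fold changes were -0.12 ± 0.31 and -0.05 ± 0.40. MEIS3, which encodes a HOX cofactor, was kept in the other direction, with a blocked log2 fold change of -1.49 ± 0.19 (adjusted p = 0.00101).

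Promoters of 65 of the 86 kept higher and 78 of the 110 kept lower genes were found in RefSeq (GRCh38.p14, 250 bases before to 50 after the start), and short words were searched in them on both strands. TTTATGG, a core bound by CDX and posterior HOX factors, was in 3 of 65 kept higher promoters (4.62%) and 2 of 78 kept lower promoters (2.56%), against 725 of 27305 promoters in all (2.66%). AATCCACA, bound by the nodal effector FOXH1, was in 1 of 65 and 0 of 78, against 0.798% of all promoters. The kept gene with this word was HOXC4, where capitals mark its reverse complement at bases -59 to -52 from the start. The 250 bases before the start are shown for HOXC4 (chr12:54016638-54016887, plus strand), for HOXA9 (chr7:27165538-27165787, minus strand), the HOX gene without a count in any DE(a) library of 48 h, and for CDX4 (chrX:73446803-73447052, plus strand). HOXA9 and CDX4 held neither word.
HOXC4: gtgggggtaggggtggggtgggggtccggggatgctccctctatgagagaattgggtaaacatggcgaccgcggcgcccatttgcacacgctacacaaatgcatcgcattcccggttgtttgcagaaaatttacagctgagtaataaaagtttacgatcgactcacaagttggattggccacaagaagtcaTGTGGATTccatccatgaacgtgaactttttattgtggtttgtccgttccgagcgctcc
HOXA9: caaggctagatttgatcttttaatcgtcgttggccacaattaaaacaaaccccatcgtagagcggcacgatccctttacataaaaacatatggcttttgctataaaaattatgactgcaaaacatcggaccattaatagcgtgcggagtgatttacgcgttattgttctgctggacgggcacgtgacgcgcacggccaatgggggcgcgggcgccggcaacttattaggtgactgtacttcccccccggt
CDX4: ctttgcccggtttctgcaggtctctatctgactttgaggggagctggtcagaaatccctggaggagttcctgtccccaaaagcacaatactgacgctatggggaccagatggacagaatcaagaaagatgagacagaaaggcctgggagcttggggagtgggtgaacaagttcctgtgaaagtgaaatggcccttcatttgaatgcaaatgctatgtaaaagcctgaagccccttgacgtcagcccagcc
A match is a description of the letters and not a bound site, and no match says only that the letters are not in this window.

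**Figure D3:**
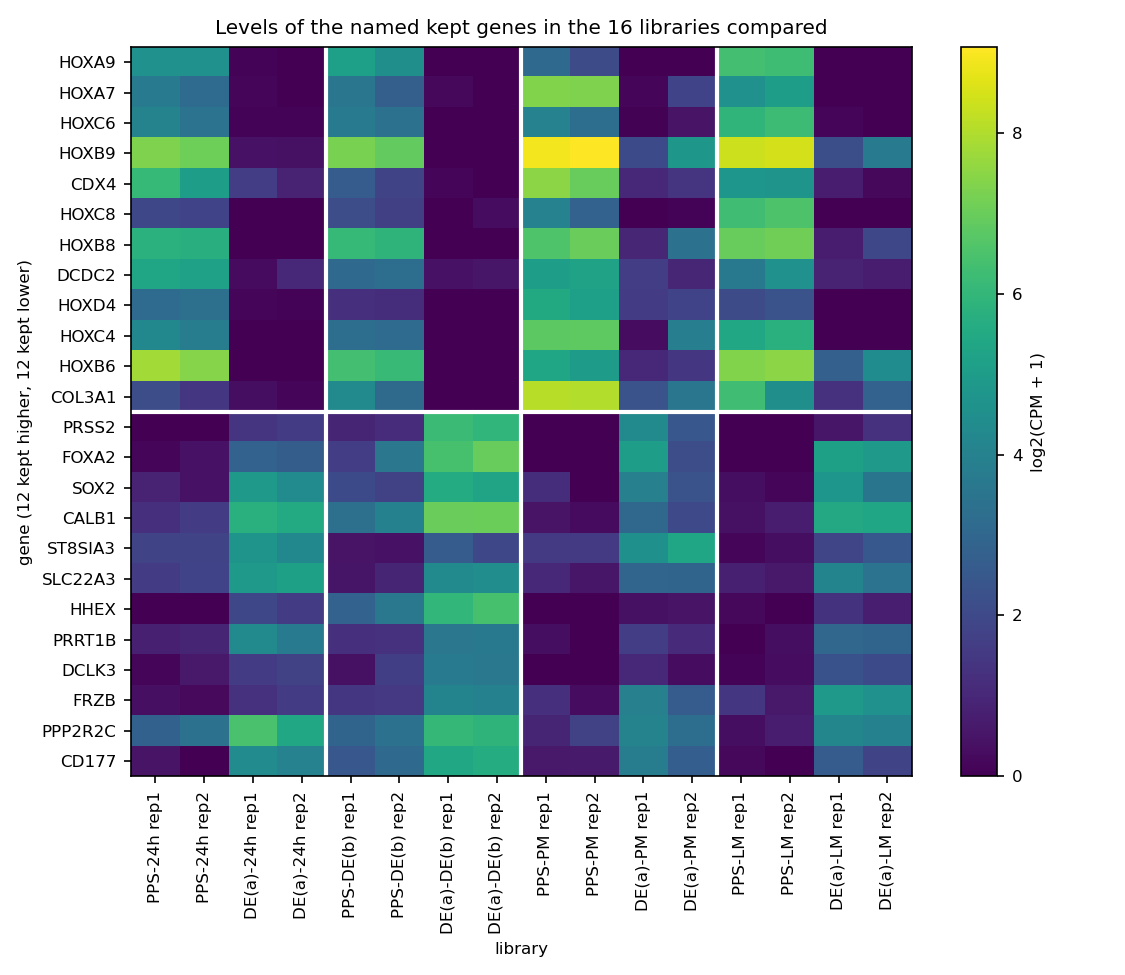
Levels, as log2(CPM + 1), of the 12 kept higher and 12 kept lower genes with the largest smallest difference over the 4 points (rows) in the 16 libraries compared (columns), in blocks of 4 for 24 h and each medium. Within each block of 4 columns the PPS libraries come first, and COL3A1 and FOXA2 show how far the level of a kept gene changed with the medium.

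Other kept higher genes encode signals, matrix proteins and transcription factors. WNT5A (ENSG00000114251, chromosome 3 from 55465715 to 55490539), a ligand of non-canonical WNT signalling expressed in the posterior streak, was at 910.2 and 577 CPM after PPS and 22.6 and 31.3 CPM after DE(a) at 24 h. WNT5A was then at 860.1 and 687 CPM after PPS and 7.14 and 4.24 CPM after DE(a) in DE(b), at 1133 and 749.5 CPM after PPS and 273 and 255 CPM after DE(a) in PM and at 706 and 732 CPM after PPS and 41.2 and 54.2 CPM after DE(a) in LM. No PPS library of 48 h overlapped with a DE(a) library. The DE(a) level rose most in PM, and the log2 fold change was 1.85 ± 0.27 in PM, 4.00 ± 0.30 in LM and 7.12 ± 0.35 in DE(b) (edgeR adjusted p of the medium dependence = 1.01e-07). WNT5B, its paralog, ranged over 51.4, 124 and 936 CPM after PPS and 1.68, 6.57 and 301 CPM after DE(a), and these ranges overlapped, with the highest values of both in PM. The receptor gene FZD6 was kept with smaller differences, from 0.57 ± 0.19 in DE(b) to 2.64 ± 0.20 in LM on the log2 scale. Of 20 WNT ligands, receptors and secreted inhibitors tested, these 3 were kept higher and none was kept lower.

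COL3A1 (ENSG00000168542, chromosome 2 from 188974373 to 189012746), a fibrillar collagen, was low at 24 h, with 3.41 and 1.69 CPM after PPS and 0.259 and 0.107 CPM after DE(a). It then rose to 272 and 257 CPM in PM after PPS, against 4.05 and 10.8 CPM after DE(a), so the log2 difference grew from 3.69 ± 1.10 to 5.18 ± 0.70. In DE(b) it was listed at 0 in both DE(a) libraries and was at least 81.9-fold higher after PPS. DCDC2, a doublecortin family gene of the microtubule and cilium, ranged over 7.49, 17.3 and 36 CPM after PPS and 0.345, 0.749 and 2.12 CPM after DE(a), and its log2 fold change lay between 4.34 ± 0.74 in DE(b) and 5.80 ± 0.74 at 24 h, with no overlap between the groups and no call of medium dependence (edgeR adjusted p = 0.994).

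Transcription factor genes of the trunk and of BMP-exposed ectoderm and mesoderm were kept too. PAX3, a marker of the presomitic mesoderm and dorsal neural tube, was at 53.8 and 68.5 CPM after PPS and 0.104 and 0.376 CPM after DE(a) at 24 h and at 12.4 and 6.57 CPM after PPS and 1.04 and 3.53 CPM after DE(a) in PM (log2 fold change 2.07 ± 0.62, edgeR adjusted p = 0.0384). TBX3, a BMP target, was at 514 and 494 CPM after PPS and 11.3 and 9.93 CPM after DE(a) at 24 h and at 519 and 546 CPM after PPS and 186 and 262 CPM after DE(a) in LM. Its log2 fold change fell from 5.49 ± 0.29 at 24 h to 0.88 ± 0.24 in PM and 1.34 ± 0.24 in LM. DLX5, expressed in amnion, ectoderm and lateral mesoderm, was at 8.94 and 16.9 CPM after PPS and 3.22 and 3.96 CPM after DE(a) in LM and just passed the threshold there (adjusted p = 0.0495). DLX5 is on the amnion list, whose summed markers were also higher after PPS in LM, and the part of amnion cells in this difference was not tested.

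The kept lower genes, higher after DE(a), held regulators of anterior streak and endoderm. FOXA2 (ENSG00000125798, chromosome 20 from 22580998 to 22585455), a pioneer factor of endoderm and axial mesoderm, was at 0.0989 and 0.361 CPM after PPS and 6.24 and 5.32 CPM after DE(a) at 24 h. FOXA2 was then at 2.17 and 11 CPM after PPS and 86 and 125 CPM after DE(a) in DE(b), at 0 and 0 CPM after PPS and 33 and 3.37 CPM after DE(a) in PM and at 0 and 0 CPM after PPS and 34.6 and 28.8 CPM after DE(a) in LM. After DE(a) it was present in the mesoderm media, with a wide gap between the PM replicates, while after PPS it had no count in PM or LM. By group means it was at least 134-fold lower after PPS in PM and 197-fold lower in LM (edgeR adjusted p = 0.000574 and 0.000137). The figure for PM rests mostly on the first DE(a) library, and the second alone would give a far smaller one. Its log2 fold change in DE(b) was -3.98 ± 0.91 (edgeR adjusted p = 0.00438). In LM other endoderm markers moved with it, the summed level of the 5 markers being 156 and 123 CPM after DE(a) and 9.84 and 10.6 CPM after PPS. In PM the sum did not, at 274 and 265 CPM after DE(a) and 271 and 332 CPM after PPS. Most of it was CXCR4, a chemokine receptor that mesoderm also expresses, at 156 and 244 CPM after DE(a) and 265 and 321 CPM after PPS. Of the 5 markers, 4 averaged at least 10 CPM in PM after DE(a) and 1 after PPS. For SOX17, at 72.7 and 3.75 CPM after DE(a), and for FOXA2 this average rested on the first DE(a) library. PRDM1 was at 12.3 and 13.7 CPM after DE(a) and 6.14 and 11.6 CPM after PPS. The part of endoderm cells persisting in the mesoderm media in these differences was not tested.

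HHEX (ENSG00000152804, chromosome 10 from 92689955 to 92695647), a homeobox gene of anterior definitive endoderm, was at 6.24 and 11.5 CPM after PPS and 62.5 and 84.1 CPM after DE(a) in DE(b), at 0 and 0 CPM after PPS and 0.329 and 0.393 CPM after DE(a) in PM and at 0.158 and 0 CPM after PPS and 1.53 and 0.716 CPM after DE(a) in LM. Outside DE(b) the difference rested on levels near 1 CPM. Its log2 fold change in DE(b) was -3.01 ± 0.44 (adjusted p = 7.8e-05). OTX2 (ENSG00000165588, chromosome 14 from 56799905 to 56816693), a regulator of anterior identity, was at 0.642 and 0.722 CPM after PPS and 87.2 and 81.1 CPM after DE(a) at 24 h. OTX2 was then at 71.1 and 94.1 CPM after PPS and 327 and 344 CPM after DE(a) in DE(b), at 2.47 and 0.19 CPM after PPS and 21.4 and 10.4 CPM after DE(a) in PM and at 0.788 and 0.492 CPM after PPS and 17.4 and 8.45 CPM after DE(a) in LM. PPS cells had little OTX2 at 24 h and gained it in DE(b), where the log2 difference shrank to -1.98 ± 0.48 (adjusted p = 0.00534). GSC, a homeobox gene of the organizer, followed the same course, from 0.395 and 0.602 CPM after PPS and 82.5 and 68.7 CPM after DE(a) at 24 h to 23.1 and 32.9 CPM after PPS and 83.5 and 108 CPM after DE(a) in DE(b) (log2 fold change -1.73 ± 0.30, adjusted p = 0.000318).

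FRZB, which encodes a secreted WNT inhibitor, was kept with log2 fold changes from -2.89 ± 0.70 at 24 h to -4.38 ± 0.60 in LM. At 48 h it was at 0.238, 1.53 and 1.83 CPM after PPS and 5.28, 15.5 and 28.2 CPM after DE(a), without overlap. SOX17, the best-known regulator of definitive endoderm, was not kept, since in DE(b) its levels were 113 and 224 CPM after PPS and 330.4 and 439.6 CPM after DE(a) and did not pass the test (log2 fold change -1.15 ± 0.87, adjusted p = 0.41). In LM it was at 0 and 0.0547 CPM after PPS and 94.8 and 69.6 CPM after DE(a). Of 16 endoderm genes tested, 6 were lower and 2 higher after PPS at 24 h, 9 lower in DE(b) medium, 6 in PM and 10 in LM, and none was higher at 48 h. HHEX, FOXA2 and OTX2 were the 3 kept.

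The kept lower genes also held members of the pluripotency network. SOX2 (ENSG00000181449, chromosome 3 from 181711925 to 181714436) was at 331 and 278 CPM in hPSC and at 0.889 and 0.361 CPM after PPS and 28.3 and 19.9 CPM after DE(a) at 24 h. In DE(b) it was at 3.12 and 2.49 CPM after PPS and 47.3 and 37.9 CPM after DE(a), in PM at 1.26 and 0 CPM after PPS and 14.5 and 4.05 CPM after DE(a) and in LM at 0.263 and 0.109 CPM after PPS and 26.5 and 10.6 CPM after DE(a). All 6 DE(a) libraries lay above all 6 PPS libraries, though far below hPSC, and the blocked log2 fold change was -4.48 ± 0.68 (edgeR adjusted p = 0.00238). NANOG (ENSG00000111704, chromosome 12 from 7787794 to 7799146) was still near its hPSC level (171 and 188 CPM) after DE(a) at 24 h, with 12.4 and 11.4 CPM after PPS and 156 and 154 CPM after DE(a). In DE(b) it was at 10.2 and 8.67 CPM after PPS and 104 and 87.1 CPM after DE(a), in PM at 0.519 and 0.19 CPM after PPS and 3.92 and 1.13 CPM after DE(a) and in LM at 0 and 0 CPM after PPS and 3.51 and 2.33 CPM after DE(a). It fell in both groups where the activin and nodal receptor was inhibited and the order by day 1 remained within each medium. Across media the groups overlapped.

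NANOG was also the only kept gene whose promoter held the composite OCT4 and SOX2 word, which occurred in 8 of 27305 promoters (0.0293%) and in 1 of the 78 kept lower ones. The 250 bases before its start (chr12:7789152-7789401, plus strand) are shown because no other kept gene held the word. A part of SOX2 or POU5F1 in the NANOG difference was not tested. Capitals mark the word's reverse complement at bases -120 to -107.
NANOG: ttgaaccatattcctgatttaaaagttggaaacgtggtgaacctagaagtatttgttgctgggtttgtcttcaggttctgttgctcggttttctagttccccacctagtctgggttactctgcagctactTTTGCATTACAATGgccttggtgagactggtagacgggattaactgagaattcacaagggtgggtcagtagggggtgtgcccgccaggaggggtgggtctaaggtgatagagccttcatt
These data hold no measurement of binding.

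PRDM14, a repressor that guards the pluripotent state, kept log2 fold changes between -3.54 ± 0.37 at 24 h and -2.59 ± 0.44 in LM. DNMT3B, a de novo DNA methyltransferase of early embryonic cells, went from 275 and 336 CPM after PPS and 852 and 821 CPM after DE(a) at 24 h to 230.0 and 247 CPM after PPS and 393 and 466 CPM after DE(a) in LM, with a log2 fold change of -1.53 ± 0.17 and then -0.76 ± 0.17 (adjusted p = 1.48e-06 and 0.00354). POU5F1, the OCT4 gene of the network, is listed under 4 gene IDs that share its symbol, so its reads are split. Summed over the 4, its level at 48 h was 145, 151 and 159 CPM after PPS and 224, 338 and 449 CPM after DE(a), without overlap. With IDs of 1 symbol summed before the fit, an alternative chosen after the data were seen, the blocked log2 fold change was -1.05 ± 0.13 (adjusted p = 0.000747), with no call at 24 h (adjusted p = 0.14). Of 16 pluripotency genes tested, 4 were kept lower. ZIC2 and ZIC5, neighbouring zinc finger genes of pluripotent and neural cells, were kept as well: ZIC2 was at 6 and 16.4 CPM after PPS and 260.5 and 257 CPM after DE(a) at 24 h and at 0.526 and 0 CPM after PPS and 26.8 and 17.1 CPM after DE(a) in LM, where the log2 fold change was -6.22 ± 0.64. Of 9 neural genes tested, SOX2, ZIC2 and ZIC5 were kept, and none was kept higher.

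The rest of the 12 named kept lower genes are not regulators of fate. CALB1, a calcium-binding protein, reached the highest level of these, with 0.19, 0.522 and 15 CPM after PPS and 2.97, 41.4 and 129 CPM after DE(a), and its highest PPS values were those of DE(b). SLC22A3, an organic cation transporter, was at 0.443 and 0.912 CPM after PPS and 18.8 and 20.8 CPM after DE(a) in DE(b), at 1.08 and 0.476 CPM after PPS and 6.83 and 6.56 CPM after DE(a) in PM and at 0.735 and 0.547 CPM after PPS and 16.1 and 9.87 CPM after DE(a) in LM. Its groups did not overlap, with a blocked log2 fold change of -4.04 ± 0.36 (edgeR adjusted p = 0.000201). ST8SIA3, a sialyltransferase, was at 0.105, 0.374 and 1.9 CPM after PPS and 2.75, 4.93 and 39 CPM after DE(a), with its highest values of both groups in PM.

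PPP2R2C, a regulatory subunit of protein phosphatase 2A, ranged over 0.263, 1.64 and 9.38 CPM after PPS and 8.77, 16.3 and 64.3 CPM after DE(a). CD177, a surface glycoprotein, ranged over 0, 0.545 and 7.58 CPM and 2.63, 9.33 and 47.7 CPM. Both overlapped across media and were separate within each. PRRT1B and the kinase gene DCLK3 were lower after PPS at every point at levels up to 11.7 and 11.9 CPM after DE(a). PRSS2, a trypsinogen gene whose value is uncertain because its reads can be shared with PRSS1 and are split over 2 IDs, reached 71.8 and 61.3 CPM after DE(a) in DE(b), and 0.913 and 1.21 CPM after PPS. Among retinoic acid genes, ALDH1A3, an enzyme that makes retinoic acid, and CRABP1, which binds it in the cell, were kept lower, with blocked log2 fold changes of -2.94 ± 0.46 and -2.31 ± 0.23 (adjusted p = 0.00259 and 0.000297).

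**Figure D4:**
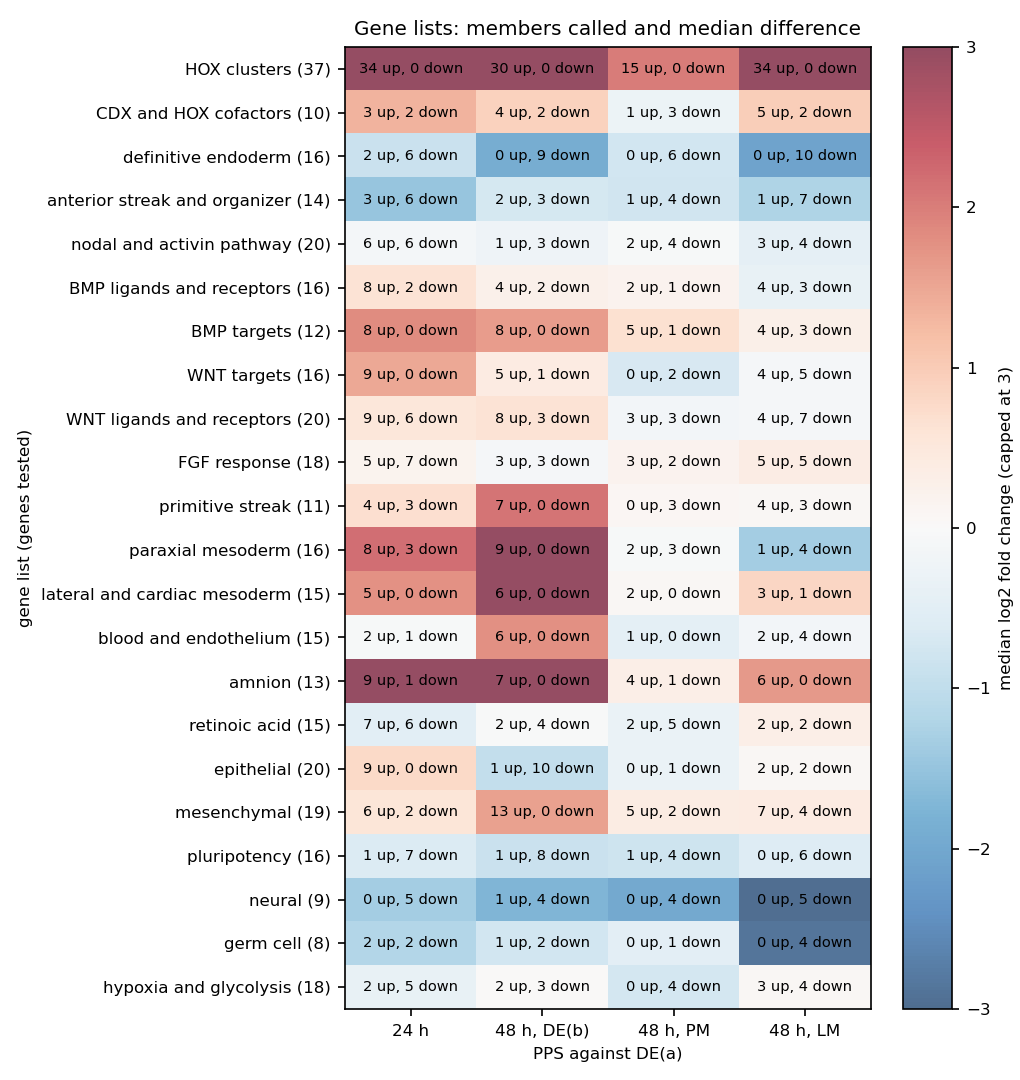
Members of 22 gene lists called higher (up) or lower (down) after PPS at 24 h and in each medium at 48 h (columns), with the number of members tested beside each list (rows). Colour is the median fitted log2 fold change of the list, capped at 3. Of 37 HOX genes 34 were called higher at 24 h, 15 in PM and 34 in LM, and none lower. Of 20 epithelial genes 9 were called higher at 24 h and 10 lower in DE(b), and 3 genes were in both sets.

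Lists with many calls at 24 h did not all hold the same calls at 48 h. Of all genes, 10.7% were higher and 10.2% lower after PPS at 24 h, and 8.63% and 8.73% in DE(b). In PM these shares were 3.67% and 4.95%, and in LM 6.52% and 7.81%. Of 16 WNT target genes, 9 were higher after PPS and none lower at 24 h, when PPS cells had the higher CHIR dose. In DE(b) 5 were higher, all of them among the 9, and 1 was lower. In PM none was higher and 2 were lower, in LM 4 were higher and 5 lower, and in the blocked fit none was called in either direction. Of 20 genes of the nodal and activin pathway, 6 were higher and 6 lower at 24 h. None was kept, but only 1.1% of all genes were, so a list of this size is not set apart by that. LEFTY1, a feedback inhibitor of nodal, was at 55.8 and 88.9 CPM after PPS and 1137 and 1152 CPM after DE(a) in DE(b), where the activin dose was shared (log2 fold change -3.94 ± 0.30, edgeR adjusted p = 2.86e-08), and near 0 in both groups in the other media. BMP targets were higher for 8 of 12 genes at 24 h. In DE(b), which contains a BMP receptor inhibitor, 8 were higher, 7 of them among the 8 of 24 h. In PM, with the same inhibitor, 5 were higher and 1 lower. In LM, which contains BMP4, 4 were higher and 3 lower. Only TBX3 of this list was kept.

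The calls among epithelial genes differed between 24 h and DE(b). Of 20 tested, 9 were higher and none lower after PPS at 24 h, and 1 was higher and 10 were lower in DE(b), where 13 of 19 mesenchymal genes were higher. Of the 9, 3 were lower in DE(b) (EPCAM, CDH3 and ELF3), 1 was higher and 5 were not called, so 7 of the 10 had not been called at 24 h. In PM none was higher and 1 was lower, and in LM 2 were higher and 2 lower. CDH1, which encodes E-cadherin, was at 717 and 861 CPM after PPS and 169 and 172 CPM after DE(a) at 24 h (log2 fold change 2.13 ± 0.27, edgeR adjusted p = 4.74e-06) and at 105 and 94.8 CPM after PPS and 116 and 83.4 CPM after DE(a) in DE(b) (adjusted p = 0.938). EPCAM went from 0.87 ± 0.26 to -0.96 ± 0.26 on the log2 scale (adjusted p = 0.0212 and 0.0135). Across the 3 media no epithelial gene and, of mesenchymal genes, only COL3A1 was kept, as were 1.1% of all genes. Of 16 paraxial genes, 8 were higher and 3 lower after PPS at 24 h. In DE(b) 9 were higher and none lower, in PM, which drives this fate, 2 were higher and 3 lower, and in LM 1 was higher and 4 lower.

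For several genes of the posterior streak no difference was called in PM, although for FZD10, TBXT and EVX1 the PPS library was the higher in both same-numbered pairs. CDX1, at 142 and 205 CPM after PPS and 10.2 and 14.9 CPM after DE(a) at 24 h, was at 129 and 189 CPM after PPS and 131 and 219.5 CPM after DE(a) in PM. FZD10, a WNT receptor gene of the streak, was at 191 and 229 CPM after PPS and 2.14 and 1.77 CPM after DE(a) at 24 h. In PM it was at 203 and 341 CPM after PPS and 107 and 279 CPM after DE(a), and in LM at 11.8 and 12.9 CPM after PPS and 0.255 and 0 CPM after DE(a). The difference did not pass the threshold in PM (edgeR adjusted p = 0.87 for CDX1 and 0.561 for FZD10) and passed it in both other media. TBXT, the brachyury gene of the streak, was called at 24 h and in DE(b) but not in PM, where it was at 402 and 557 CPM after PPS and 180.5 and 380.0 CPM after DE(a) (log2 fold change 0.79 ± 0.39). For EVX1, a posterior streak homeobox gene that was not called at 24 h, the first DE(a) library of PM had 56.7 CPM and the second 176 CPM, against 141 and 203 CPM after PPS.

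Some posterior signals and mesoderm factors differed at 48 h without a call at 24 h. FGF4, an FGF ligand of pluripotent cells and streak, was at 121 and 154 CPM after PPS and 90.0 and 116 CPM after DE(a) at 24 h (edgeR adjusted p = 0.486) and higher after PPS in each medium, with 51.7 and 84.6 CPM after PPS and 8.34 and 5.55 CPM after DE(a) in PM. Its blocked log2 fold change was 2.99 ± 0.32 (adjusted p = 0.000429). PRRX1, a homeobox gene of lateral and limb mesenchyme, was at 249 and 161 CPM after PPS and 0 and 0.668 CPM after DE(a) in LM and at 10.9 and 6.43 CPM after PPS and 0.094 and 0.617 CPM after DE(a) in PM. HAND2, a regulator of heart and limb mesoderm, was at 158 and 69.8 CPM after PPS and 8.26 and 22.5 CPM after DE(a) in LM (log2 fold change 2.95 ± 0.57, adjusted p = 0.00118). Of 15 lateral mesoderm genes tested, 5 were higher after PPS at 24 h, as were 6 in DE(b) medium, 2 in PM and 3 in LM (1 lower in LM).

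Of 327 genes (1.83%) called in 1 direction in all 3 media, 122 were not called at 24 h, 38 of them higher and 84 lower after PPS, and 9 had been called in the opposite direction (CACNA2D2, MYCL, CPXM2, RAB3IP, CARHSP1 and GRIK3 higher at 24 h and lower at 48 h, and GPM6B, CRISPLD1 and KSR1 the reverse). Muscle actins were among the 122. ACTC1, the cardiac actin gene, was at 291 and 162 CPM after PPS and 107 and 85.7 CPM after DE(a) at 24 h (adjusted p = 0.0685), at 469.5 and 269.7 CPM after PPS and 10.8 and 7.85 CPM after DE(a) in DE(b), at 178 and 107 CPM after PPS and 12.8 and 10.8 CPM after DE(a) in PM and at 3079.5 and 2281 CPM after PPS and 225 and 587 CPM after DE(a) in LM. The log2 fold change was 3.61 ± 0.49 in PM, 2.80 ± 0.47 in LM and 5.35 ± 0.53 in DE(b) (edgeR adjusted p = 5.98e-05, 0.000172 and 3.9e-07). ACTA1, the skeletal muscle actin gene, which shares sequence with it, did likewise at lower levels. CCN4, a matricellular WNT target, was highest in LM, with 133 and 113 CPM after PPS and 0.891 and 1.58 CPM after DE(a), and C1orf105 reached 14.6 and 7.8 CPM in PM after PPS. Called lower at 48 h and not at 24 h were STMN2 and MOBP, known from neurons and myelin, ITPRID1 and SHISA3. SHISA3, an inhibitor of WNT and FGF receptors, was at 0.158 and 0.109 CPM after PPS and 236 and 235 CPM after DE(a) in LM.

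A further set of genes was called at 24 h and in no medium at 48 h. SLFN5, an interferon-responsive gene, was at 85.4 and 88.4 CPM after PPS and 14.4 and 12.9 CPM after DE(a) at 24 h (log2 fold change 2.59 ± 0.20, edgeR adjusted p = 9.99e-09) and at 24.6, 30.3 and 36.7 CPM against 18.4, 25.5 and 33.1 CPM at 48 h, where the groups overlapped. TRIM2, a ubiquitin ligase, and P4HA2, a collagen prolyl hydroxylase, were higher at 24 h by 2.17 ± 0.18 and 2.16 ± 0.22 and at 48 h had blocked log2 fold changes of -0.14 ± 0.11 and 0.06 ± 0.13. GATA6, a regulator of endoderm and mesoderm, was at 65.1 and 44.8 CPM after PPS and 207 and 189 CPM after DE(a) at 24 h and then at overlapping levels: 467 and 563 CPM after PPS and 465 and 604 CPM after DE(a) in DE(b), 16.6 and 14.2 CPM after PPS and 16.3 and 10.2 CPM after DE(a) in PM and 73.7 and 52.2 CPM after PPS and 51.6 and 74.6 CPM after DE(a) in LM. TFRC, the transferrin receptor gene, and ANKRD13B were lower at 24 h and not called at 48 h either, with blocked log2 fold changes of -0.32 ± 0.10 and -0.01 ± 0.22. With the replicate number as a further block, which the paired libraries of 48 h allow, TFRC passed the threshold (edgeR adjusted p = 0.0496). The blocked log2 fold change of GATA6 was 0.09 ± 0.15. A call needs a difference of several SEs, since TFRC at -0.32 ± 0.10 was not called without the replicate block. Smaller differences than that would not have been seen.

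The difference between PPS and DE(a) depended on the medium for 2458 genes (13.7%) by edgeR, and 342 genes were called in opposite directions in 2 media. Glycophorin genes, which are expressed in erythroid cells, were among the 6 with the widest gap between fitted fold changes, but GYPE and GYPB are close paralogs whose reads may be split wrongly. GYPB was at 14.6 and 10.5 CPM after PPS and 0.443 and 0.0581 CPM after DE(a) in DE(b) and at 0 and 0 CPM after PPS and 5.21 and 5.46 CPM after DE(a) in LM. FOXF2, a forkhead gene of lateral mesoderm, was at 8.07 and 8.44 CPM after PPS and 0 and 0 CPM after DE(a) in DE(b), at 0.13 and 0.0476 CPM after PPS and 1.08 and 0.224 CPM after DE(a) in PM and at 17.8 and 15.3 CPM after PPS and 6.73 and 12.3 CPM after DE(a) in LM. Its level in DE(b) was at least 51.2-fold higher after PPS. TRPC5, a cation channel gene, was at 19 and 20.8 CPM after PPS and 0.8 and 2.19 CPM after DE(a) in PM and at 0.0525 and 0 CPM after PPS and 8.91 and 4.44 CPM after DE(a) in LM. SLPI, a protease inhibitor gene, was at 0 and 0 CPM after PPS and 8.93 and 12.6 CPM after DE(a) in LM and under 1 CPM elsewhere. PRSS51 was at 0.0482 and 0.0606 CPM after PPS and 3.6 and 5.12 CPM after DE(a) in DE(b) and at 7.92 and 12.5 CPM after PPS and 0.509 and 0.477 CPM after DE(a) in LM.

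The MPS and APS libraries were not used to choose the kept genes, apart from their share in the estimate of the spread. MPS and APS, the middle and anterior streak media, lie between PPS and DE(a): both held 30 ng/ml activin and 20 ng/ml bFGF, and MPS added 40 ng/ml BMP4 and had 6 µM CHIR where APS had 4 µM. In the 12 MPS and APS libraries of 48 h, blocked by medium, 166 of 16517 genes (1.01%) were called, 67 higher (0.406%) and 99 lower (0.599%) after MPS. With the replicate number as a further block 262 genes were called, and without any 1 of the 12 libraries between 55 and 109 were. Of the 86 kept higher genes, 24 were higher after MPS and none was lower, and 84 had a positive log2 fold change, against 49.2% of all genes. Of the 110 kept lower genes, 28 were lower after MPS and none was higher, and all 110 had a negative log2 fold change, against 50.8% of all genes. The medians were 0.95 and -0.77, against -0.004 for all genes. HOXA9 was at 0.261, 1.19 and 5.51 CPM after MPS and 0, 0 and 0.103 CPM after APS, again without overlap (log2 fold change 6.51 ± 0.85, edgeR adjusted p = 0.00743). CDX4 was at 0, 1.26 and 32.2 CPM and 0, 0.105 and 2.52 CPM (log2 fold change 3.51 ± 0.46, adjusted p = 0.00743). CD177 was the other way round, with 0.522, 0.946 and 18.4 CPM after MPS and 2.63, 6.27 and 66.4 CPM after APS (log2 fold change -2.18 ± 0.23, adjusted p = 0.00317).

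Not every kept gene separated MPS from APS: the adjusted p was 0.147 for FOXA2, 0.0895 for SOX2, 0.219 for NANOG and 0.257 for COL3A1. Within a medium, the mean level of all 4 day 1 treatments ran in the order DE(a), APS, MPS, PPS, rising or falling, for 55 of the 86 kept higher genes in DE(b) medium, 61 in PM and 49 in LM, and for 65, 81 and 67 of the 110 kept lower genes. For all genes tested the shares were 22.0%, 23.4% and 15%. The outer pair of that order was used to choose the kept genes, and a wide gap makes it likelier that APS and MPS lie between. The shares of all genes are thus no like reference for the full order. APS and MPS both lay between DE(a) and PPS for 57, 63 and 51 of the kept higher and 68, 84 and 72 of the kept lower genes. Over all genes 5536, 5841 and 3894 had both between, of which 3943, 4184 and 2685 had the full order.

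**Figure D5:**
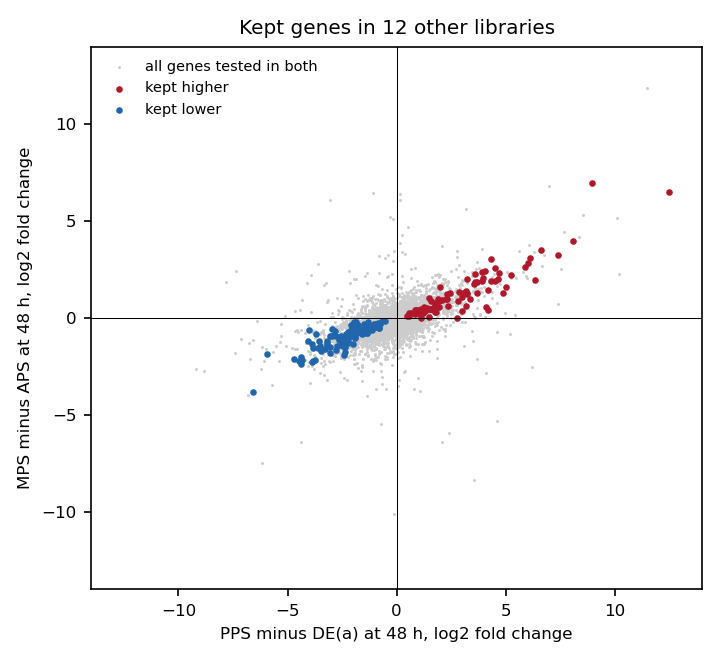
Blocked log2 fold change at 48 h of PPS against DE(a) (x axis) and of MPS against APS (y axis), which share no library. Of the kept higher genes (red), 84 of 86 lie above 0 on the y axis, and all 110 kept lower genes (blue) lie below it. Grey points are all genes tested in both.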

How the data were processed

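Strand-specific poly(A) libraries of ESI017 cells were sequenced in paired-end mode. Per the labels, the authors quantified transcripts with Salmon 1.10.2 and summed them to genes in R 4.4.2, and the deposited estimated counts of 37951 genes in 34 libraries, 1 column per library and 0 columns without a sample, are the values used here. They were rounded to whole numbers. Among the genes tested, 466 symbols had over 1 gene ID (1138 IDs in all), and IDs were tested separately. Of the kept genes this holds for PRSS2 and LONRF1. IDs of 1 symbol were summed as an alternative. CPM is the count divided by the total of its library and scaled to 1e+06.

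Tests were run in edgeR 4.0.16 (R 4.3.3, limma 3.58.1) with TMM normalisation, filterByExpr by condition, the quasi-likelihood test and Benjamini-Hochberg adjustment. The 4 contrasts of PPS with DE(a), 1 at 24 h and 1 per day 2 medium, and the test of medium dependence (an F test with 2 degrees of freedom), came from 1 fit to the 34 libraries (17895 genes, 17 residual degrees of freedom). The differences shared by media came from a fit to the 12 libraries of 48 h with medium as a block (16976 genes, 8 residual degrees of freedom), and likewise for MPS and APS (16517 genes). An SE is the log2 fold change divided by the square root of F. A count of 0 allows 3 counts, and this floor and all p-values cover counting error and the spread between these samples only. A bound on a fold compares the mean of the replicates with the mean floor, so a single replicate can lie below it. DESeq2 1.42.0 was an alternative, and the scripts were tested on simulated data. Figures and tables used Python 3.11.15, numpy 2.4.6, pandas 2.3.3 and matplotlib 3.10.9. Positions are from GENCODE v44 on GRCh38, and promoter sequences from RefSeq.

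The compared groups share replicate numbers. The deviations of same-numbered PPS and DE(a) libraries from their group means correlated across genes at -0.024 at 24 h. At 48 h they correlated at 0.190 in DE(b) medium, 0.318 in PM and 0.132 in LM. Every pair of 48 h thus passed the limit of 0.1, and the numbers were taken to pair the libraries. At 24 h the libraries share a number and a deposited set of counts, but their deviations did not go together. Fits with and without the replicate number were run, and counts and p-values are from those without it unless stated.

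The comparison, its gene lists and the rule for named genes were chosen with earlier results of these data known. The rule took, among genes whose mean reached 10 CPM in 1 condition and the same sign in both replicates, the 12 kept higher and 12 kept lower genes with the largest smallest log2 fold change over the 4 points, the 4 higher and 4 lower genes called only at 48 h by the same measure, the 3 and 3 genes called only at 24 h with all log2 fold changes at 48 h under 0.5, the 6 genes called in opposite directions in 2 media with the widest gap, and up to 4 members of each list with the largest blocked log2 fold change. Further list members (CDX1, CDX2, CDH1, EPCAM and LEFTY1 among them) and the promoters shown were chosen after their values were seen.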

Additional observations from a re-analysis of the deposited data

Results flagged for a closer look

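The effect of day 1 differed between day 2 media for 2458 genes by edgeR's F test of medium dependence, and 342 genes were called in opposite directions in 2 media. Medium dependence was also called for 64 of the 196 kept genes, so a kept direction did not mean a constant size, and 9 genes called in 1 direction in all 3 media had been called in the opposite direction at 24 h. Named genes among the 2458 follow, each with its adjusted p from edgeR's test of medium dependence over all genes tested.

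Of HOX genes, the difference was smaller in PM or LM than in DE(b) for HOXB9 (0.03), HOXB8 (0.0241) and HOXB6 (0.000274), larger in LM than in the other media for HOXC8 (0.0436), and seen in LM but not in PM for HOXA11 (0.0213). WNT genes with such differences were WNT5A (1.01e-07), WNT5B (0.000639), FZD10 (9.23e-05) and FZD5 (4.37e-06), each with its smallest difference in PM. Of FGF genes and their feedback inhibitors they were FGF3 (0.0121), DUSP4 (0.00375) and SPRY1 (0.0412), and of BMP targets TBX3 (0.0267) and BAMBI (0.00732).

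Of streak and mesoderm genes, medium dependence was called for EVX1 (0.00257), SNAI1 (0.0438), GSC (0.00391), PAX3 (0.0281) and HES7 (0.0062), and of amnion genes for DLX5 (0.0499) and TFAP2A (0.00122). FOXA2 (0.0461), SOX17 (0.00426), KIT (0.00965) and PRDM1 (0.000278), which are endoderm and germ cell genes, and ZIC2 (0.00244), ZIC5 (2.41e-05) and CALB1 (0.00624) were lower after PPS by an amount that depended on the medium. The same test called LAMA1 (0.00658), ZEB1 (0.0012) and VEGFA (0.0052). Of the genes called at 48 h and not at 24 h, it called CCN4 (0.0243), ACTA1 (0.028), ACTC1 (0.0232) and SHISA3 (0.00373). The genes of opposite direction were GYPE (1.42e-05), SLPI (0.000541), GYPB (0.000114), FOXF2 (3.95e-06), TRPC5 (2.59e-05) and PRSS51 (3.47e-05).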

How the results depend on the processing

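The number of kept genes, 196, was 193 with RLE normalisation and 248 with DESeq2. Without a filter on low counts it was 296, of which 167 were among the 196, and in a fit to only the 16 libraries compared 129. With the counts of IDs that share a symbol summed, chosen after the data were seen, it was 212, including 195 of the 196. Asking for 2 of the media instead of 3, also added after the data were seen, gave 306 without DE(b), 387 without PM and 317 without LM. Without 1 library it ranged from 109 to 197. A fold change of at least 2 left 2096 genes at 24 h, 1882 in DE(b), 1018 in PM, 998 in the fit blocked by medium and 92 between MPS and APS. With only the 16 libraries, 982 genes were called in PM.

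Without 1 library the calls ranged from 2190 to 3815 at 24 h, from 1563 to 3181 in DE(b), from 567 to 1576 in PM and from 1558 to 2608 in LM, and those of medium dependence from 1728 to 2631. The fit blocked by medium called 1897 genes, and 4056 when the 3 media were averaged in the fit of 34 libraries, 3028 with DESeq2, 999 without the 4 DE(b) libraries, 984 without the 4 LM libraries and 0 to 1855 without replicates. The count of 0 came from 6 libraries with 2 residual degrees of freedom, and the other alternatives that leave 1 replicate per condition have none, so they were not run. Between MPS and APS, 711 genes were called both by the average of media and by DESeq2, 665 without a filter, 263 with IDs of 1 symbol summed, 30 without the 4 DE(b) libraries, 83 without the 4 LM libraries, 118 without the 4 PM libraries and 0 to 109 without replicates.

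With the replicate block, 4823 genes were called at 24 h, 258 were kept, including all 196, and 2089 were called in the fit blocked by medium. Between MPS and APS it gave 262. It ended the blocked call of 5 of 104 named genes (TFAP2B, ESRP2, FZD10, ZEB1 and SOX17) and made that of TFRC. The 24 named kept genes passed in the blocked fit in all 288 values without 1 library and in all 168 under other settings, but with 6 or 8 libraries 48 of 120 values lost the call.

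None of the 92 named genes called in the blocked fit reversed. Of the 12 others, 9 did under some settings, and the causes were not tested. The values below are log2 fold changes. Without replicates GYPB ranged from -3.14 to 2.96, TRPC5 from -0.98 to 1.58, PRSS51 from -1.09 to 1.36, GYPE from -3.68 to 4.92, SLPI from -5.13 to 0.56, ANKRD13B from -0.20 to 0.23, P4HA2 from -0.087 to 0.19, GATA6 from -0.0095 to 0.24 and FOXF2 from 0.62 to 2.41. With no filter GYPB was at 0.0015, with IDs of 1 symbol summed at 0.079, and under the replicate block GYPB was at 0.0098 and ANKRD13B at 0.0125. In the average of media TRPC5 was at -0.93 and PRSS51 at -0.46, and with DESeq2 GYPE was at -0.10. Without the 4 DE(b) libraries TRPC5 was at -0.32, FOXF2 at -0.27 and GYPE at -6.53, without the 4 PM libraries TRPC5 at -2.60, P4HA2 at -0.087, ANKRD13B at 0.011 and GYPB at 0.19, and without the 4 LM libraries ANKRD13B at 0.10, GYPB at 5.02 and PRSS51 at -2.56. Genes under about 1 CPM rest on few counts, so their fitted folds are imprecise.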

Other observations

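Lists without a kept gene still held single differences. Of 18 hypoxia and glycolysis genes, 2 were higher and 5 lower after PPS at 24 h, and none was kept (1.1% of all genes were). VEGFA, an angiogenic factor, was at 32.1 and 46.2 CPM after PPS and 202 and 306 CPM after DE(a) in DE(b) (log2 fold change -2.66 ± 0.33, edgeR adjusted p = 6.3e-06) and was not called in the other media. Of 8 germ cell genes, 4 were lower after PPS and none higher in LM. PRDM1, a repressor of germ cells and endoderm, was at 0.473 and 0.328 CPM after PPS and 19.1 and 20.0 CPM after DE(a) in LM. KIT, a receptor of germ cells and endoderm, was at 6.01 and 17.1 CPM after PPS and 181 and 179 CPM after DE(a) in DE(b), and in PM, where it was not called, at 14.4 and 6.9 CPM after PPS and 29.4 and 5.9 CPM after DE(a).

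FZD5, a WNT receptor gene, had the largest fall of the WNT list in DE(b), with 42.7 and 69.6 CPM after PPS and 813 and 1183 CPM after DE(a) (log2 fold change -4.11 ± 0.28, adjusted p = 2.84e-09). In PM, where it was not called, it was at 5.19 and 4.28 CPM after PPS and 7.34 and 5.72 CPM after DE(a). ZEB1, a repressor of epithelial genes, was lower after PPS at 24 h, with 1.38 and 0.903 CPM after PPS and 1.97 and 3.33 CPM after DE(a), and higher in DE(b), with 17.7 and 20.4 CPM after PPS and 3.86 and 3.78 CPM after DE(a) (edgeR adjusted p = 0.00508 and 3.77e-06).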
